A study of Homo sapiens with 6 samples.

Results

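The genes described here are 10 components of insulin-like growth factor (IGF) and insulin receptor signalling: the ligands IGF1 and IGF2, the receptors IGF1R, INSR and IGF2R, the receptor substrates IRS1 and IRS2, and the secreted binding proteins IGFBP2, IGFBP4 and IGFBP6. They were chosen by name, with earlier results of these data known, and all 10 were found among the 60662 rows of the count table. Of these, 9 had enough counts to be tested, among 14425 tested genes in all. RNA sequencing was done on TC-71, an established Ewing sarcoma cell line, in 3 libraries labelled wildtype and 3 labelled XG knockout. XG is the gene of the Xg blood group antigen, a glycoprotein of the cell surface. Both groups were kept in Iscove's medium with fetal bovine serum and given no treatment, so serum growth factors were present throughout. The labels do not say how the knockout was made, whether it is a clone or a pool, or whether the libraries of a group came from separate cultures, so a p-value here speaks of the spread among these libraries, which may be technical.

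IGF1 and IGF2 are secreted peptides that bind the tyrosine kinase IGF1R, and IGF2 also binds INSR. The activated receptors phosphorylate IRS1 and IRS2, which recruit phosphatidylinositol 3-kinase (PI3K) and through it activate AKT and the mTOR complexes. IGF2R takes up IGF2 for degradation in lysosomes and carries no kinase. The binding proteins hold IGFs outside the cell, and proteases such as pappalysin-1 (PAPPA) release them. In Ewing sarcoma the fusion protein EWSR1-FLI1 is known to lower IGFBP3, and IGF1R has been a drug target in patients.

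Library totals ranged from 22557187 to 31214099 counts. XG read 45.4, 47.1 and 44.5 CPM (counts divided by the library size in units of 1e6, the size adjusted by trimmed mean of M values) in wildtype replicates 1 to 3, and 30.0, 30.0 and 28.9 CPM in the knockout. The difference was -0.63 on the log2 scale (SE 0.0478, adjusted p = 1.65e-06 by edgeR's quasi-likelihood test with Benjamini-Hochberg adjustment), so its RNA was lower but still present in all 3 knockout libraries. All 9 Ewing sarcoma markers were detected, with a summed level of 2755 to 2809 CPM in wildtype and 2683 to 2696 CPM in knockout libraries. None of 5 leukocyte markers passed the filter on low counts, with summed levels up to 0.362 CPM, and 0 of 4 endothelial markers did. Of 5 fibroblast markers 3 passed (COL1A1, DCN and LUM), and the list summed to 38.0 to 41.0 CPM in wildtype and 36.0 to 43.5 CPM in the knockout, while PDGFRA and COL1A2 were at or near 0. Of 5 epithelial markers 2 passed (KRT8 and KRT18), and the list summed to 5.14 to 5.72 CPM in wildtype and 7.01 to 7.56 CPM in the knockout; its part in the results was not tested. Knockout replicate 3 stood apart. Its counts differed from the wildtype libraries by a chi-square per gene of 2.15 to 2.38, and from knockout replicates 1 and 2 by 4.70 and 4.33. For genes whose transcripts have at least 61.4% GC, the median log2 deviation from the mean of all libraries was -0.15 and -0.095 in knockout replicates 1 and 2, 0.084 in knockout replicate 3, and 0.048 to 0.070 in the wildtype libraries. Fold changes are therefore also given after a correction for GC content or without replicate 3 where these change a call or a direction.

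Among themselves the members spanned a wide range of levels, and the order was the same in both groups apart from its low end. Levels between genes are compared as CPM per kb of exon, as means over the 6 libraries with the lowest and highest library. IGFBP2 was highest at 31.6 (29.1 to 34.4), above 89.95% of the tested genes. IRS2 followed at 26.5 (24.7 to 27.7), and the clearance receptor IGF2R at 18.4 (17.8 to 18.8). IGF1R stood at 8.06 (7.69 to 8.38), higher than 63.91% of tested genes, and IGFBP4 at 6.49 (5.94 to 7.10). IRS1 came next at 4.08 (3.75 to 4.44), and INSR lay between 1.46 and 1.58. The lowest tested members were IGF1 at 0.914 (0.752 to 1.02) and IGFBP6 at 0.828 (0.656 to 1.18). The ranges of IGF1 and IGFBP6 overlapped, so those neighbours in the order were not separated, while every other pair of neighbours was separated in all 6 libraries.

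**Figure D1:**
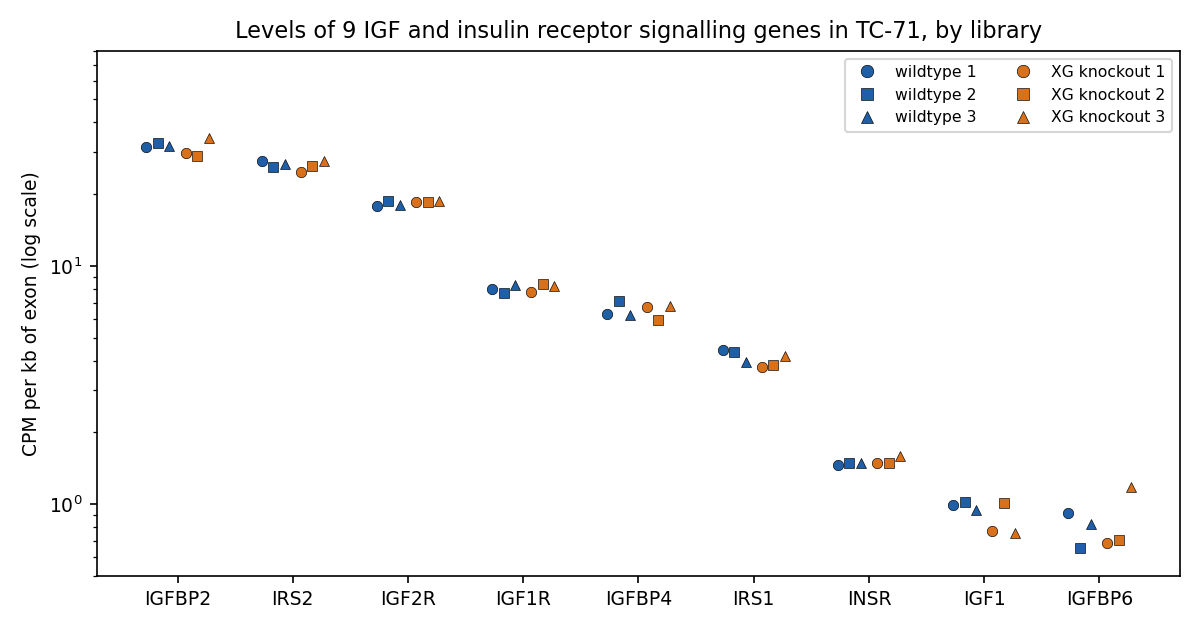
Level of each tested member in every library, in CPM per kb of exon on a log axis, ordered by the mean over all libraries. Blue points are wildtype and orange points XG knockout, and the point shape gives the replicate number. Libraries of a gene lie close together beside the distance between genes, from IGFBP2 near 31.6 to IGFBP6 near 0.828.

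No member passed the test between XG knockout and wildtype. At an adjusted p under 0.05 the count was 0 of 9, where 1.36% of all tested genes were called. At an unadjusted p under 0.05 it was also 0 of 9, against 16.8% of all tested genes. The unadjusted count was 2 of 9 after the GC correction and 3 of 9 without knockout replicate 3. The share of all genes at that threshold was not computed for those fits, so these counts show neither an excess among members nor its absence. Without knockout replicate 3, 12.7% of all tested genes passed even the adjusted threshold. For every member the libraries of both groups overlapped, whereas they did not overlap for 20.5% of all tested genes. DESeq2 and limma voom also called 0 members, and after the GC correction 0 were called, against 2.35% of all tested genes. The median log2 fold change of the 9 members was -0.018, beside 0.0019 for all tested genes, and the median size regardless of sign was 0.038, beside 0.072. With only 9 genes these shares do not set the members apart from other genes.

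**Figure D2:**
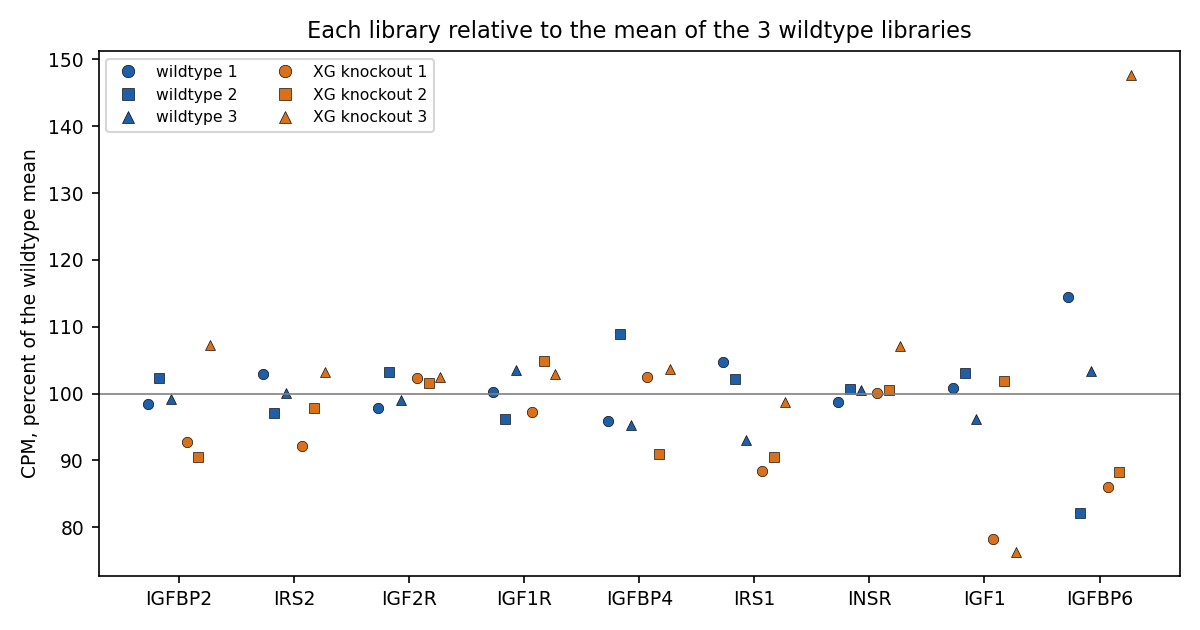
CPM of each tested member in every library as a percentage of the mean of the 3 wildtype libraries (grey line at 100). Blue points are wildtype, orange points XG knockout, and shapes give the replicate number. Wildtype and knockout points overlap for all 9 genes, and the low-count genes IGFBP6 and IGF1 scatter most.

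The 3 receptors were close to their wildtype levels. IGF1R (chr15:98648539-98964530, plus strand, GRCh38), the receptor tyrosine kinase for both IGFs, read 111.6, 107.2 and 115.3 CPM in wildtype and 108.3, 116.8 and 114.7 CPM in knockout libraries. The groups interleaved, with the lowest and next lowest libraries coming from different groups. On the log2 scale the knockout differed by 0.026 (SE 0.0377, 95% interval -0.053 to 0.10, edgeR adjusted p = 0.783), which puts the knockout level between 96.4% and 107.6% of wildtype.

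INSR (chr19:7112255-7294414, minus strand), the insulin receptor, which can also pair with IGF1R as a hybrid receptor, read 15.8, 16.1 and 16.1 CPM in wildtype and 16.0, 16.1 and 17.2 CPM in knockout libraries. The knockout level was 102.7% of wildtype (95% interval 93.5% to 112.7%, edgeR adjusted p = 0.816). IGF1R exceeded INSR per kb in every library, with a ratio of 5.40 ± 0.208 (SD, n = 3) in wildtype and 5.36 ± 0.242 (SD, n = 3) in the knockout. These gene counts do not separate the INSR splice forms, of which one binds IGF2 with higher affinity.

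IGF2R (chr6:159969099-160113507, plus strand) read 317.4, 334.9 and 321.5 CPM in wildtype and 332.1, 329.6 and 332.6 CPM in knockout libraries. The highest library of all was a wildtype one. The knockout level was 102.1% of wildtype (95% interval 98.0% to 106.3%, edgeR adjusted p = 0.645), the narrowest interval among the members. Per kb, IGF2R exceeded IGF1R by a ratio of 2.18 to 2.44 over the 6 libraries.

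Of the ligands, IGF1 was low and IGF2 could not be measured well. IGF1 (chr12:102395874-102481744, minus strand) read 8.07, 8.25 and 7.70 CPM in wildtype and 6.27, 8.16 and 6.11 CPM in knockout libraries. Knockout replicates 1 and 3 lay below all wildtype libraries and replicate 2 lay within them. The means were 8.01 ± 0.283 and 6.85 ± 1.14 CPM (SD, n = 3 each), and the knockout minus wildtype difference in log2 was -0.22 (SE 0.110, 95% interval -0.45 to 0.012, edgeR adjusted p = 0.327). The estimate was 85.9% of wildtype, with an interval from 73.2% to 100.9%. It rested on which knockout libraries were used, with -0.38 in log2 without knockout replicate 2 and -0.14 without knockout replicate 3, and it was not called in either case (edgeR adjusted p = 0.169 and 0.49). Of its exon bases, 82.4% overlap HELLPAR, a long noncoding RNA on the opposite strand, which had 103 to 133 counts a library. The counting used strand, and HELLPAR itself differed by -0.17 in log2 (SE 0.116, edgeR adjusted p = 0.497).

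IGF2 (chr11:2129112-2141238, minus strand) had 3, 1 and 0 counts in wildtype and 0, 0 and 1 in knockout libraries, 5 in all, and was not tested. A count of 0 allows up to 0.0949 to 0.134 CPM depending on the library, for counting error only, and no fold is given. Of its 6259 exon bases, 70.7% are shared on the same strand with the annotated genes AC132217.2, AC132217.1 and INS-IGF2, each of which had 0 counts in all libraries. Fragments falling on shared bases belong to more than one gene and were not counted, per the options in the file headers, so the low value holds for the remaining 1835 bases only. The level of IGF2 in TC-71 is uncertain here for that reason.

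The substrates IRS1 and IRS2 couple the receptors to PI3K. IRS1 (chr2:226731317-226799759, minus strand) read 44.2, 43.1 and 39.3 CPM in wildtype and 37.3, 38.2 and 41.6 CPM in knockout libraries. Knockout replicates 1 and 2 were below every wildtype library, and replicate 3 was above wildtype replicate 3. The knockout differed by -0.11 in log2 (SE 0.0549, 95% interval -0.23 to 0.0021, edgeR adjusted p = 0.308), or 92.5% of wildtype. Without knockout replicate 3 the estimate was -0.16 (edgeR adjusted p = 0.0281), in a fit that called 12.7% of all tested genes. With replicate 3 as the only knockout library it was -0.023, a value given with no test since that group is then 1 library. The GC correction gave -0.11 with all libraries and -0.15 without replicate 3 (edgeR adjusted p = 0.283 and 0.106).

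IRS2 (chr13:109752695-109786583, minus strand) read 224.9, 212.2 and 218.7 CPM in wildtype and 201.4, 213.9 and 225.5 CPM in knockout libraries. The lowest and the highest library were both knockout ones. Its level was 97.7% of wildtype (95% interval 92.6% to 103.1%, edgeR adjusted p = 0.712), and the log2 fold change turned from -0.033 to 0.034 after the GC correction. Per kb, IRS2 exceeded IRS1 in every library, with a ratio of 6.34 ± 0.409 in wildtype and 6.68 ± 0.137 in the knockout (SD, n = 3 each), and the ranges overlapped. IRS4, another member of the substrate family, had 0 counts in all libraries.

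Among the binding proteins, IGFBP2 (chr2:216632828-216664436, plus strand) was the one whose call changed when a single library was left out. It read 149.9, 155.7 and 151.0 CPM in wildtype and 141.1, 137.8 and 163.2 CPM in knockout libraries. Knockout replicates 1 and 2 were lower than every wildtype library and replicate 3 was higher than all of them. The means were 152 ± 3.08 and 147 ± 13.8 CPM (SD, n = 3 each), a difference of -0.047 in log2 (SE 0.0475, edgeR adjusted p = 0.68). Without replicate 3 the estimate was -0.13 (edgeR adjusted p = 0.00325), and with replicate 3 as the only knockout library it was 0.10, again with no test. The IGFBP2 transcript has a GC content of 57.1%, and the GC correction brought the log2 fold change to 0.0057 with all libraries and to -0.045 without replicate 3 (edgeR adjusted p = 0.957 and 0.54). IRS1 and IGFBP2 were the 2 members called without replicate 3, where 12.7% of all tested genes were called.

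IGFBP4 (chr17:40443450-40457725, plus strand), a substrate of PAPPA, read 13.8, 15.7 and 13.7 CPM in wildtype and 14.7, 13.1 and 14.9 CPM in knockout libraries. Both the highest value and the lowest came from replicate 2, in wildtype and knockout respectively. Its level was 98.8% of wildtype (95% interval 88.2% to 110.6%, edgeR adjusted p = 0.932), and the log2 fold change turned from -0.018 to 0.078 after the GC correction. IGFBP6 (chr12:53097436-53102345, plus strand), which prefers IGF2, had 34, 23 and 25 counts in wildtype and 23, 30 and 46 in knockout libraries. At this depth the 95% interval of its level ran from 73.6% to 157.1% of wildtype (edgeR adjusted p = 0.88). The counts do not tell levels within that range apart. Knockout replicate 3 was the highest of the 6 libraries at 1.59 CPM, and the log2 fold change of 0.10 was -0.20 without it.

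**Figure D3:**
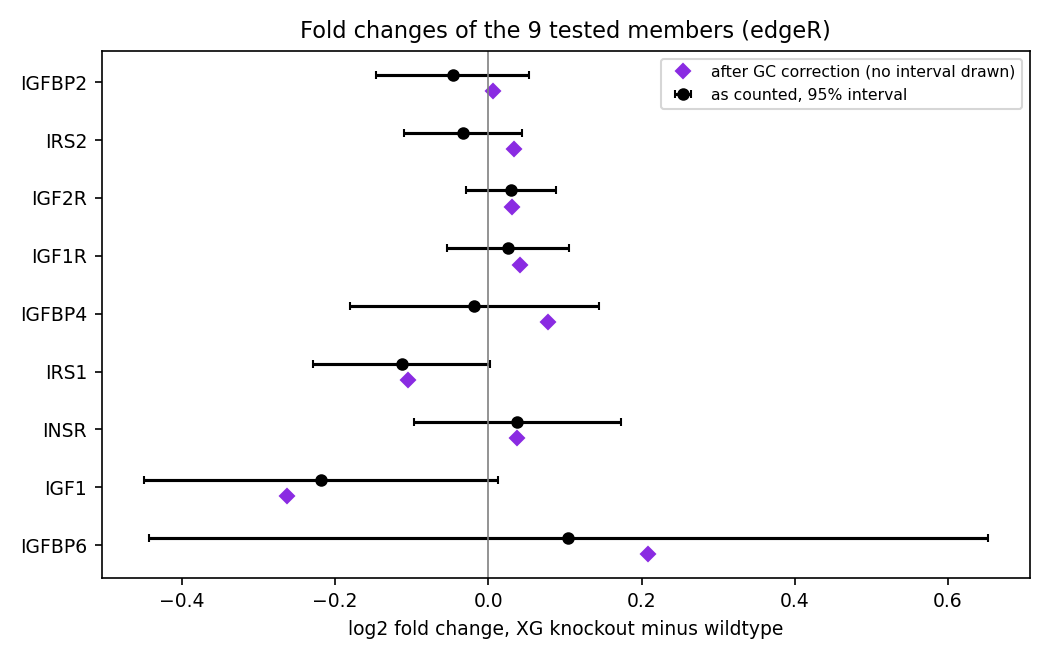
Log2 fold change of each tested member, XG knockout minus wildtype, from edgeR. Black points carry 95% intervals, and purple diamonds give the estimate after the GC correction. All 9 intervals reach 0, with IGF2R narrowest and IGFBP6 widest.

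IGFBP2 made up most of the RNA for IGFBP1 to IGFBP6. Summed per kb, it took 73.6% to 75.6% over the 6 libraries, IGFBP4 14.6% to 16.5%, IGFBP5 6.96% to 8.69% and IGFBP6 1.49% to 2.59%. IGFBP3, the binding protein named above for its repression in Ewing sarcoma, took up to 0.0652%, from few counts, and IGFBP1 was at 0. The shares of IGFBP2 were 74.7% ± 0.349 in wildtype and 74.6% ± 0.978 in the knockout (SD, n = 3 each), with overlapping ranges.

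Around the members, 73 other genes of the pathway were listed, of which 57 were tested. These lists too were chosen with earlier results of these data known. PAPPA and RPTOR were the 2 called, both lower in the knockout. That is 2 of 57 called beside 1.36% of all tested genes. At an unadjusted p under 0.05, 16 of the 57 passed, 12 of them lower and 4 higher in the knockout, beside 16.8% of all tested genes. The groups did not overlap for 8 genes that were higher and 8 that were lower, beside 20.5% of all tested genes in either direction. Over all 57 genes the median log2 fold change was 0.010.

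PAPPA (chr9:116153791-116402321, plus strand), the secreted protease that cuts IGFBP4 and IGFBP5, read 95.7, 95.5 and 98.7 CPM in wildtype and 86.8, 87.8 and 88.0 CPM in knockout libraries. All knockout libraries lay below all wildtype ones, replicate 3 among them. PAPPA fell to 90.6% of its wildtype level, or by -0.14 in log2 (SE 0.0341, edgeR adjusted p = 0.0447), and after the GC correction the value was -0.15 (edgeR adjusted p = 0.00262). The call was close to the threshold. It was lost with upper quartile scaling, DESeq2 and the replicate block, and on leaving out any single wildtype library or knockout replicate 1 or 2. In these fits the adjusted p reached 0.21 (edgeR, without wildtype replicate 3). The call was kept with relative log expression scaling, limma voom, the other filters, the GC correction and without knockout replicate 3. Log2 fold changes were -0.16 to -0.13 throughout.

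The stanniocalcins STC1 and STC2, which inhibit PAPPA, are the other tested genes of that list, and neither passed the test. STC1 read 7.85, 8.75 and 8.19 CPM in wildtype and 9.84, 9.71 and 10.3 CPM in knockout libraries (log2 fold change 0.27, SE 0.0843, edgeR adjusted p = 0.117). STC2 read 31.1, 29.6 and 31.4 CPM in wildtype and 31.6, 34.2 and 34.1 CPM in knockout libraries (log2 fold change 0.12, SE 0.0524, edgeR adjusted p = 0.259). For both genes every knockout library was above every wildtype one. Per kb, the ratio of PAPPA to STC2 was 1.67 ± 0.0386 in wildtype and 1.39 ± 0.0533 in the knockout, and the ratio of PAPPA to STC1 was 4.18 ± 0.252 and 3.14 ± 0.0861 (SD, n = 3 each). These ratios were chosen after the values were seen and are a description. PAPPA was lower and STC1 and STC2 were higher without overlap, so the separation of the ratios adds nothing to the single genes. The ratio of PAPPA to its substrate IGFBP4 was 1.28 ± 0.110 in wildtype and 1.17 ± 0.0889 in the knockout (SD, n = 3 each), with overlapping ranges. IGFBP5, another PAPPA substrate, read 21.6, 23.0 and 23.9 CPM in wildtype and 21.1, 20.7 and 20.5 CPM in knockout libraries, without overlap (log2 fold change -0.14, SE 0.0592, edgeR adjusted p = 0.25).

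**Figure D4:**
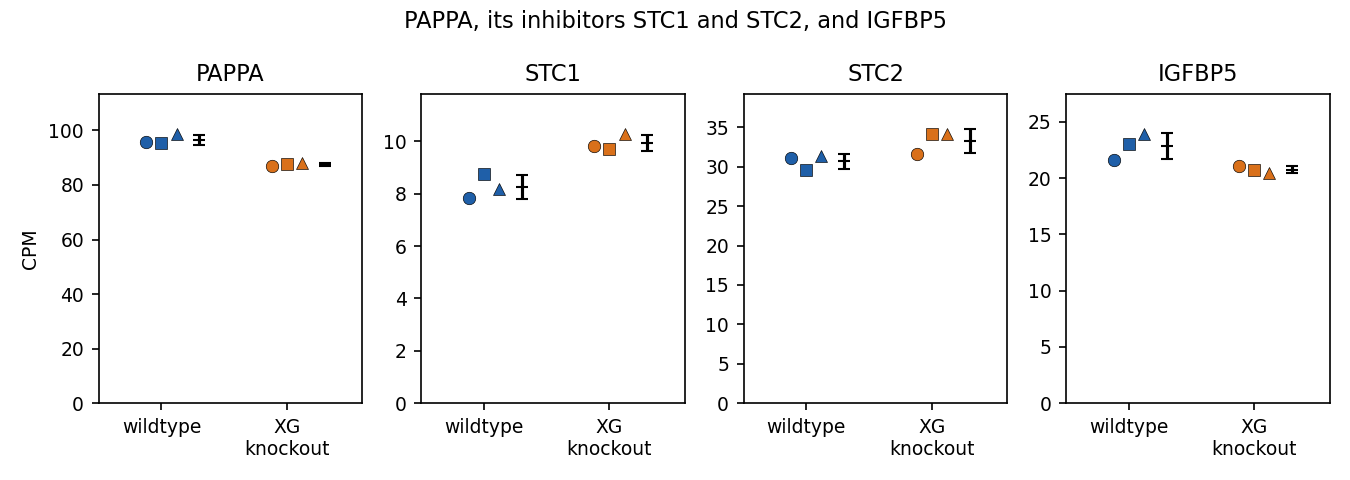
CPM of PAPPA, STC1, STC2 and IGFBP5 in each library, on axes that start at 0. Points are libraries with the shape giving the replicate number, and the bars beside them are the mean and SD of 3 libraries. PAPPA and IGFBP5 are lower and STC1 and STC2 higher in all knockout libraries, and among these genes the test called PAPPA alone.

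The list of AKT, mTOR complex and S6 kinase genes, not all of which encode kinases, had the most genes at an unadjusted p under 0.05. It also had the most tested genes, and by share the list of PAPPA and its inhibitors was higher, at 3 of 3. Of 16 tested genes for AKT, the mTOR complexes and S6 kinases, 10 had negative log2 fold changes and 8 had an unadjusted p under 0.05, all 8 lower in the knockout, beside 16.8% of all tested genes at that threshold in either direction. The median log2 fold change of the 16 was -0.091, and -0.019 after the GC correction. RPTOR (chr17:80544819-80966371, plus strand), the scaffold of mTOR complex 1, was the only one called. It read 115.5, 118.1 and 118.3 CPM in wildtype and 103.6, 101.4 and 111.0 CPM in knockout libraries, all below wildtype, with replicate 3 nearest to it. RPTOR fell to 89.8% of its wildtype level, or by -0.15 in log2 (SE 0.0370, edgeR adjusted p = 0.0444), and the value after the GC correction was -0.079 (edgeR adjusted p = 0.148). The call was lost with upper quartile scaling, the stricter filter, the replicate block and in every fit with the GC correction. It was also lost on leaving out any single library other than knockout replicate 3. In these fits the edgeR adjusted p reached 0.268, with the GC correction and the replicate block. The call was kept with relative log expression scaling, DESeq2, limma voom, no filter and without knockout replicate 3. With replicate 3 as the only knockout library the log2 fold change was -0.078, given with no test.

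The 8 genes, picked here by their p and so a description only, have transcripts of 52.0% to 65.5% GC. Their median log2 fold change was -0.13, -0.053 after the GC correction, -0.040 with knockout replicate 3 as the only knockout library and -0.17 without it, when all 8 were called beside 12.7% of all tested genes. After the correction 0 of the 8 were called, beside 2.35% of all tested genes. At an unadjusted p under 0.05, 3 of the 8 still passed after the correction, a threshold for which the share of all genes was not computed in that fit. AKT1 and AKT1S1, named here after their values were seen, are the kinase itself and a substrate of it that binds mTOR complex 1. AKT1 averaged 204 ± 2.37 CPM in wildtype and 187 ± 7.60 CPM in knockout libraries (SD, n = 3 each; edgeR adjusted p = 0.0608), and its log2 fold change of -0.13 became -0.030 after the correction. AKT1S1 was at 74.1 ± 0.148 and 65.2 ± 4.85 CPM (SD, n = 3 each; edgeR adjusted p = 0.0566), and its log2 fold change of -0.19 became -0.11. MTOR itself differed little, at -0.026. Across the 57 pathway genes, log2 fold change and transcript GC content had a Pearson correlation of -0.43 (Spearman -0.53), and -0.027 after the correction. The correction removes each library's trend with GC content, so a value near 0 over many genes follows from how it is made. Whether that trend was technical was not tested. Over all tested genes with a GC value the Pearson correlation was -0.25. Over the 9 members it was 0.66 (Spearman 0.30), and 0.86 after the correction. The members at the ends of the GC range are IGF1 (36.68%, SE 0.110) and IGFBP6 (64.15%, SE 0.26), which have the largest SEs. How far the correlation over members rests on them was not tested. All these correlations are descriptions over genes that share the same libraries.

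**Figure D5:**
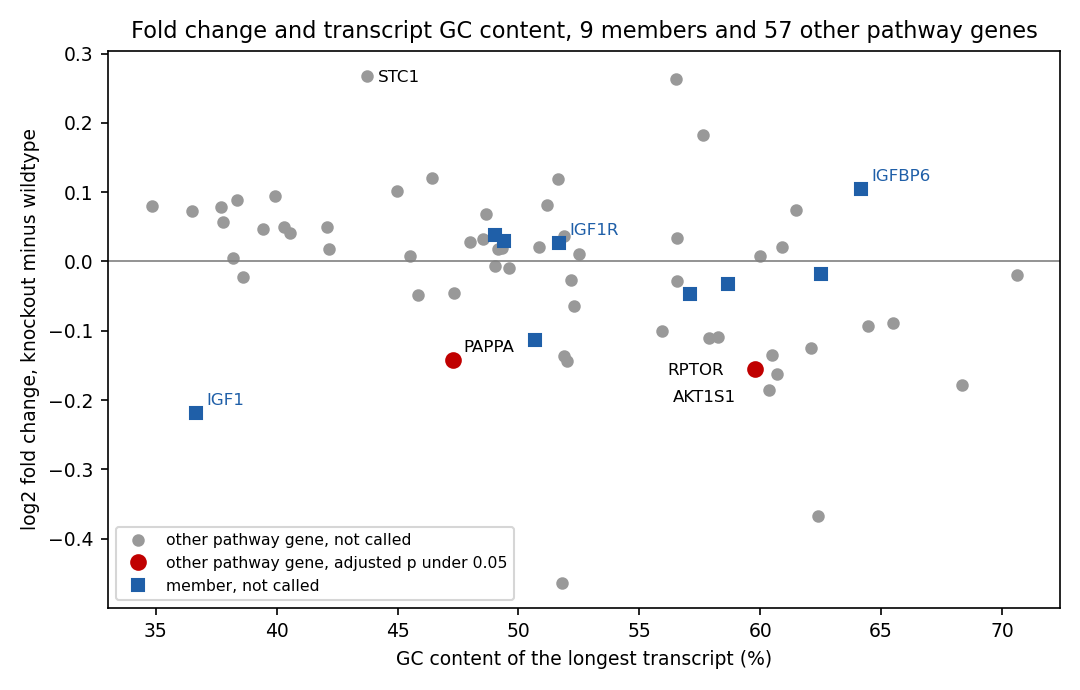
Log2 fold change, XG knockout minus wildtype, against the GC content of the longest transcript. Blue squares are the 9 tested members, grey and red circles the 57 other pathway genes, red for the 2 called. Grey points lie lower towards high GC content, RPTOR sits at 59.8% GC and PAPPA at 47.3%.

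In the other lists no gene was called. The PI3K and phosphatase list had 9 positive and 2 negative values among 11, and its gene of smallest p was INPP5D, a lipid phosphatase, with 4.09 ± 0.117 CPM in wildtype and 4.91 ± 0.0742 CPM in knockout libraries (SD, n = 3 each; edgeR adjusted p = 0.248). INPPL1, the related phosphatase SHIP2, was named after its values were seen: its estimate was 0.074 in log2 (edgeR adjusted p = 0.426) and 0.16 after the GC correction (edgeR adjusted p = 0.00346). Among 15 adaptors and brakes of the receptors, the smallest p was that of SH2B1, an adaptor of the insulin receptor, at 42.0 ± 2.04 and 37.5 ± 1.29 CPM (SD, n = 3 each; edgeR adjusted p = 0.111). The SH2B1 estimate of -0.16 in log2 was -0.19 without knockout replicate 3 (edgeR adjusted p = 0.00838) and -0.079 after the GC correction (edgeR adjusted p = 0.428). FOXO1, a transcription factor that AKT keeps out of the nucleus, differed by 0.12 in log2 (edgeR adjusted p = 0.418), with 4 positive and 3 negative values in its list of 7. Of the 3 proteins that bind IGF2 mRNA, IGF2BP2 had the smallest p, at 0.069 in log2 (edgeR adjusted p = 0.405).

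Genes outside the pathway whose CPM followed IGF1R most closely over the 6 libraries were DNAJC27 (Pearson r = 0.986), PACRGL (r = 0.984) and CES3 (r = 0.975). These are the highest correlations among all tested genes, over 6 libraries that share their depth scaling, and are given as a description. IGF1R itself varied little between libraries, and none of the 3 was called between groups.

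In the authors' deposited table, IGF1R had a log2 fold change of 0.024 with an adjusted p of 0.858, and IGF2R 0.029 with 0.737. For IRS1 the authors' deposited table gives -0.11 with an adjusted p of 0.436, for IRS2 -0.034 with 0.768 and for IGFBP2 -0.048 with 0.734. The authors' deposited table holds no adjusted p for the other 5 members. PAPPA has -0.14 and an adjusted p of 0.0447 in the authors' deposited table, and RPTOR -0.16 and 0.0279. The authors' deposited table also puts AKT1 and AKT1S1 under 0.05, with adjusted p of 0.038 and 0.0392, where the edgeR test did not.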

How the data were processed

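Groups and replicate numbers of the 6 TC-71 libraries come from the sample titles. The submitters' processing notes name bcl2fastq, STAR 2.7.6a and GRCh38. The authors' deposited counts are fragments per GENCODE 33 gene from featureCounts (Subread 2.0.1) in paired-end, reverse-strand mode, with no option for multi-mapping or overlapping fragments, per the file headers. This lowers genes that share exons. The authors' deposited log2 fold changes and p-values are attributed to DESeq2 1.38.3 (R 4.2.2) in the submitters' processing notes, and their sign equals that of the fit below for 99.16% of genes.

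Counts kept by filterByExpr (minimum count 10, total 15) were tested with edgeR 4.0.16 (R 4.3.3; TMM, glmQLFTest, two-sided, no covariates), with Benjamini-Hochberg adjustment over 14425 genes and a threshold of 0.05. The procedure was tested on simulated data in which each gene had the same spread in all libraries. Those data were not drawn to match how far knockout replicate 3 stood from the other knockout libraries. Alternatives were other scalings, DESeq2 1.42.0, limma 3.58.1 voom, filters, a replicate block, GC correction (lowess, span 0.5, longest GENCODE 29 transcript), each library left out and a threshold of 0.01; knockout replicate 3 alone, and the GC correction without it, were added after seeing the data. Members and lists were chosen with earlier results of these data known. Named are all members, called genes of the other lists or else the gene of smallest p, genes sharing exons with a member, and the 3 most like IGF1R; others are marked. Intervals and floors cover counting error or the spread of these libraries only.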

Additional observations from a re-analysis of the deposited data

How the results depend on the processing

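Over all tested genes 196 were called, against 647 with no filter on low counts, 339 with the GC correction, 37 with the replicate block, 33 at an adjusted p under 0.01, 125 with knockout replicate 3 as the only knockout library, 386 with the GC correction and replicate 3 left out, and 18 to 1851 with 1 library left out, the highest without knockout replicate 3. Calls were 64 higher and 132 lower (67.35% lower), and with the GC correction 157 higher and 182 lower (53.69% lower). The count of members called was 0 under every alternative run except without knockout replicate 3, where it was 2, so it ranged from 0 to 2 with 1 library left out. The count of other pathway genes called was 2, against 0 with upper quartile scaling, 0 with the replicate block and 0 at an adjusted p under 0.01. It was 1 with the stricter filter, 4 with no filter and 3 with the GC correction and replicate 3 left out. With 1 library left out it ranged from 0 to 11. The replicate numbers did not pair the libraries: correlations of same-numbered deviations were -0.044, -0.017 and -0.049. IGF1, IGF2R, INSR and IRS1 kept their direction in every alternative run. Estimates near 0 changed sign for the other members. With 1 library left out IGF1 ranged from -0.38 to -0.14. IGF1R ranged from -0.00092 to 0.056 with 1 library left out, IRS2 from -0.073 to 0.0067, IGFBP4 from -0.055 to 0.049 and IGFBP6 from -0.20 to 0.24. With the GC correction IRS2 was at 0.034, IGFBP2 at 0.0057 and IGFBP4 at 0.078, and with the replicate block added to it at 0.034, 0.0031 and 0.083. With replicate 3 as the only knockout library IRS2 was at 0.045, IGFBP2 at 0.10 and IGFBP4 at 0.051. With the GC correction and replicate 3 left out IRS2 was at 0.031, IGFBP4 at 0.10 and IGFBP6 at -0.019. The cause of these changes was not tested. Fits with replicate 3 as the only knockout library take their spread from the wildtype libraries, on the assumption that the lone library varies like them. At 23 to 46 counts a library, depth limits IGFBP6.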

Other observations

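Other pathway genes differed widely in level, as CPM per kb of exon in wildtype (mean ± SD, n = 3). EIF4EBP1, the translation repressor that mTOR complex 1 phosphorylates, was at 244 ± 5.07, above 99.23% of tested genes over all libraries. The adaptor SHC1 was at 64.7 ± 0.862 and IGF2BP1, which binds IGF2 mRNA, at 50.3 ± 0.979. The kinase AKT1 was at 18.3 ± 0.212 and AKT2 at 8.88 ± 0.184. The regulatory PI3K subunit PIK3R1 was at 10.3 ± 0.146 and PIK3R3 at 5.08 ± 0.162. PIK3R2 was at 0.0115 ± 0.00470, but 86.5% of its exon bases are shared on the same strand with AC007192.1, so fragments there were not counted for it and its level is uncertain. INS-IGF2 shares 100% of its exon bases with other genes on the same strand and had 0 counts. INS, IGFBP1, IGFALS, HTRA1 and ADAM28 were at 0 counts in all 6 libraries. These genes were chosen after their values were seen.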
